A study of Mus musculus with 10 samples.

Results

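The genes described here are the extracellular and membrane proteases of the matrix metalloproteinase (Mmp), Adam and Adamts families, the Adamts-like (Adamtsl) proteins, which have no protease domain, and the tissue inhibitors of metalloproteinases (Timp). They were taken by symbol from the deposited raw count table, and 84 of its 52459 symbols belong to them, namely 23 Mmp, 33 Adam, 19 Adamts, 5 Adamtsl and 4 Timp genes. RNA was sequenced while wild-type (WT) C57BL/6 mouse embryonic stem cells, named ES-Bruce4 in the labels, were differentiated towards neuromesodermal progenitors, the cells that supply spinal cord and paraxial mesoderm to the elongating embryo. Each of the 5 groups holds 2 libraries, given below as replicate 1 and then replicate 2. D2 libraries come from day 2 and carry the label epiblast stem cell, and D3 and D6 libraries come from days 3 and 6. D7G libraries come from day 7 after 24 h with 50 ng/ml Gdf11, a ligand of the TGF-beta family added on day 6 as the human protein, and D7 libraries come from day 7 without it. D3, D6, D7G and D7 libraries all carry the label neuromesodermal progenitor. All cells had 10 ng/ml bFgf from the start, and 5 µM CHIR99021, which activates Wnt signalling, was added on day 2. These protocol amounts are listed alike for all 5 groups. They do not show whether D2 cells were taken before CHIR99021 was added. The stem cells had been grown on mouse embryo fibroblast feeders and were depleted of them once, which limits the model where feeder RNA could remain. Libraries held 31078950 to 33418015 counts. Whether the libraries of a group were separate cultures is not given, so a p-value here reflects library-to-library spread alone, and that spread may be technical. Replicates differed most in D7G, with a mean chi-square of 4.25 per gene, and least in D2, with 1.95. The labels were checked against markers. Markers of the epiblast summed to 2841 and 2835 CPM (counts scaled to a common library total) in D2 and to at most 911 CPM in any later library. Those of caudal neuromesodermal progenitors summed to 1033 and 1065 CPM in D3, 468 and 499.5 CPM in D6, 181 and 196 CPM in D7G, and 226 and 215 CPM in D7, against 16 and 15.7 CPM in D2, so they were lower in the later groups that carry the progenitor label than in D3.

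Mmp enzymes cut collagens, laminins and other matrix proteins. They are made as inactive proenzymes, and the membrane-type members stay at the cell surface. Adam proteins are anchored in the membrane and release the outer part of other membrane proteins, Notch receptors and growth factor precursors among them, although several members have lost their catalytic site. Adamts enzymes are secreted and process procollagens, proteoglycans such as versican, and proteins of the fibrillin microfibrils. Timp proteins block the active site of Mmp enzymes, and Timp3 also inhibits several Adam and Adamts enzymes. At the tail end of the embryo these enzymes act on the matrix through which mesoderm cells leave the epiblast and on which somites form.

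The filter on low counts kept 53 of the 84 genes for testing, namely 12 Mmp, 15 Adam, 18 Adamts, 5 Adamtsl and 3 Timp genes. The other 31 had at most 11 counts in any library, and 10 of them, 2 Mmp and 8 Adam genes, had 0 counts in all 10 libraries. Among the Mmp genes the split followed the map. The 10 Mmp genes on chromosome 9 between positions 7272514 and 7699585 (mm10), which include collagenases, stromelysins and matrilysin, all fell below the filter and had 121 counts in the whole data set. Of the 13 Mmp genes elsewhere, 12 passed, and the 13 had 71318 counts. Of 13 Adam genes on chromosome 8, Adam9 alone passed. Counts of genes that share exonic bases with a gene on the opposite strand are uncertain where strand was not used, which is not stated. Among the tested genes the largest such shares were 22.3% for Mmp19 (with Tmem198b), 21.3% for Timp3 (with Syn3) and 20.6% for Adam15 (with 4731419I09Rik).

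Of the 53 genes tested, 20 (37.7%) had their highest mean in D7G, as had 21.1% of all tested genes. The share with the highest mean in D2 was 26.4% of the members, beside 29.3% of all tested genes. Summed over the 84 genes, the level was 823 and 829 CPM in D2, 879 and 890.1 CPM in D3, 993 and 999.6 CPM in D6, 1532 and 1606 CPM in D7G, and 1072 and 1071 CPM in D7. Both D7G libraries thus lay above the other 8. Levels of different genes were compared per kilobase of gene length. On that scale the inhibitor Timp1 led in D2, with a mean of 17.5 CPM per kb, and the membrane protease Adam9 led in D3, with 22.6 CPM per kb. Adam10, the main sheddase of Notch receptors, led in D6 with 37.5 CPM per kb, in D7G with 42.2 CPM per kb and in D7 with 39.0 CPM per kb. In D7G it was followed by Adam19, a sheddase needed for heart development in the mouse, with 33.3 CPM per kb, and by the gelatinase Mmp2 with 29.6 CPM per kb.

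**Figure D1:**
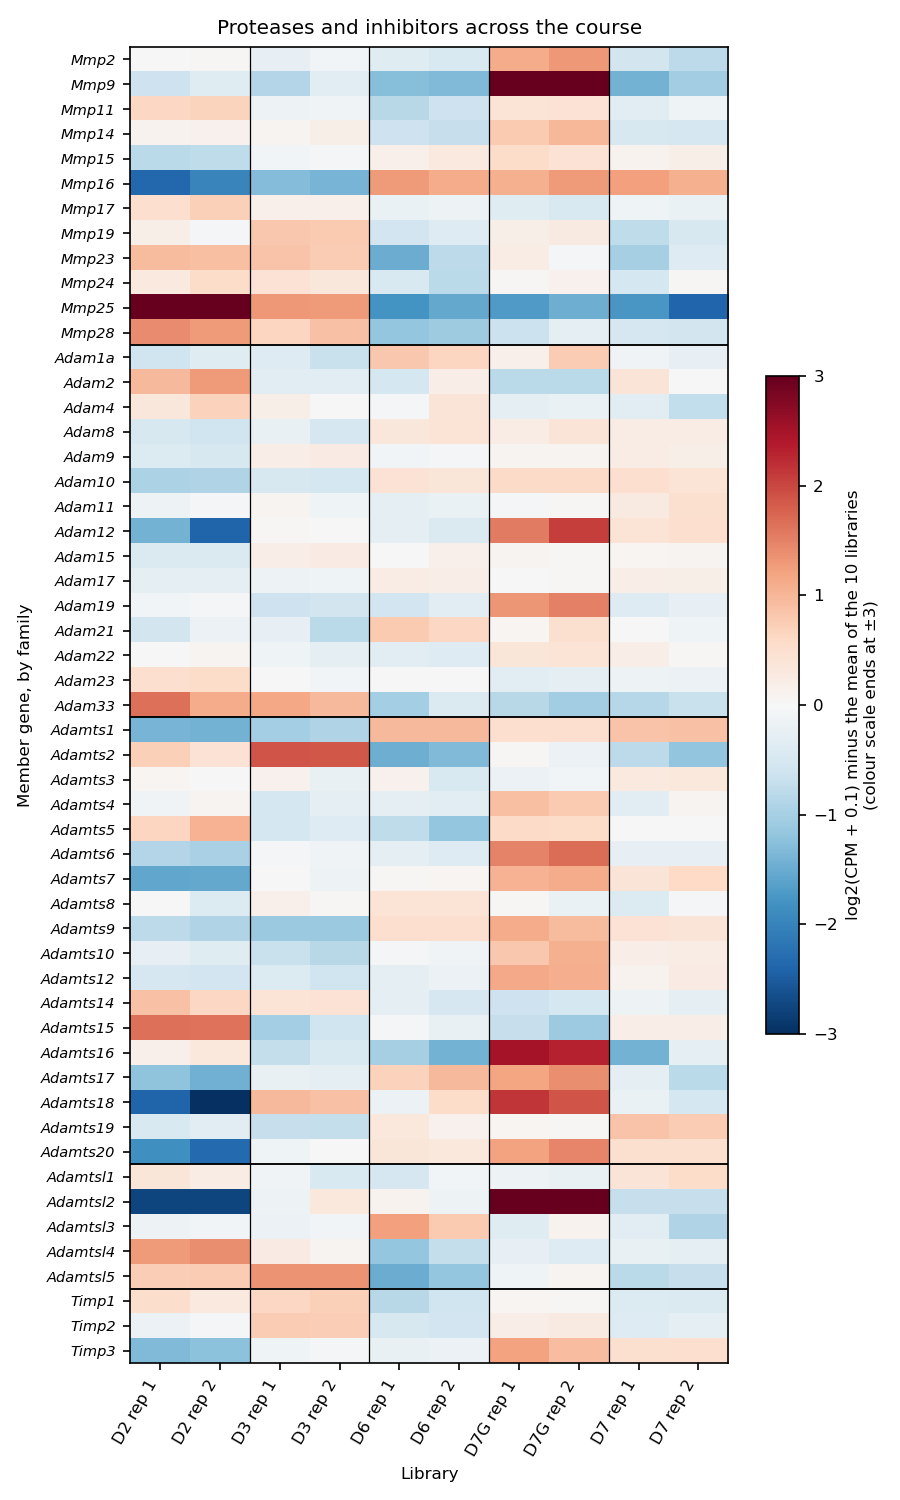
Level of the 53 tested genes (down the page, by family) in each of the 10 libraries (across), as log2(CPM + 0.1) minus that gene's mean over the libraries, red above and blue below, with the colour scale ending at 3 in both directions. Mmp9, Adamtsl2, Adamts16 and Adamts18 are dark red in the D7G libraries, and Mmp25 and Adamts15 are red in the D2 libraries.

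D7G against D7 asks how these progenitors respond to Gdf11, which acts through Smad2 and Smad3 and is known for its part in the transition from trunk to tail. Gelatinases, the membrane-bound activator of proMmp2, many Adamts enzymes and the 3 measured Timp genes were higher with Gdf11. At an adjusted p under 0.05 in edgeR's quasi-likelihood test, with Benjamini-Hochberg adjustment over 18818 genes, 29 of the 53 tested genes were higher and 8 were lower, and 16 did not pass. Of all tested genes 22.5% were higher and 18.2% were lower (40.7% in either direction). At least 2-fold changes were seen in 10 members upward, beside 4.25% of all tested genes, and in 2 downward, beside 0.957%. The median log2 fold change was 0.54 over the 53 members and 0.02 over all tested genes. Of the 29 calls upward 23 held in all 19 alternative fits, 10 of which leave out a library each, and of the 8 downward 6 did. The 29 comprised 7 of 12 Mmp, 5 of 15 Adam, 12 of 18 Adamts, 2 of 5 Adamtsl and 3 of 3 Timp genes, and the 8 comprised 4 Adam, 3 Adamts and 1 Adamtsl gene.

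The 2 gelatinases, which cut denatured collagen and basement membrane type IV collagen, were both higher with Gdf11. Mmp9 (chromosome 2, 164940780 to 164955850, mm10) had 30.4 and 47.7 CPM in D7G, against 1.05 and 1.39 CPM in D7. In the D2, D3 and D6 libraries it lay between 1.13 and 2.37 CPM, so the D7G libraries stood apart from all others. Its log2 fold change in D7G against D7 was 5.00 ± 0.22 (SE, adjusted p = 4.39e-13), the largest among the members tested. Mmp2 (chromosome 8, 92827291 to 92853420) had 92.9 and 107 CPM in D7G, against 29.3 and 25 CPM in D7, a log2 fold change of 1.88 ± 0.07 (adjusted p = 9.22e-14). The other libraries had 31.5 to 44.3 CPM of Mmp2, all below both D7G libraries. In bulk samples fewer cells of a type and less RNA per cell cannot be told apart, here and in every comparison that follows.

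Among the membrane-type Mmp genes the change was uneven. Mmp14 (MT1-MMP), the membrane enzyme that activates proMmp2 at the cell surface together with Timp2, had 77 and 88.6 CPM in D7G, against 31.9 and 31.5 CPM in D7 (log2 fold change 1.38 ± 0.06, adjusted p = 6.72e-13). Mmp15 (MT2-MMP) had 80.1 and 73.8 CPM in D7G, against 58.8 and 62.0 CPM in D7, a smaller rise of 0.35 ± 0.05 on the log2 scale. Neither gene's groups overlapped. The share of all tested genes without overlap is not given here. With 2 libraries per group, lack of overlap, here and below, describes the values and adds no support. Mmp16 (MT3-MMP) had 17.8 and 20.5 CPM in D7G, against 19.9 and 17.8 CPM in D7, and its groups overlapped (log2 fold change 0.03 ± 0.09, adjusted p = 0.849). Mmp17, Mmp24 and Mmp25, also membrane-type, did not pass, with log2 fold changes of -0.25 ± 0.10, 0.32 ± 0.23 and 0.54 ± 0.31. Mmp17 passed under 1 setting, the filter of at least 1 CPM in 2 libraries (adjusted p = 0.0403). Mmp11 (stromelysin-3) had 29.1 and 29.9 CPM in D7G, against 17.5 and 20.1 CPM in D7 (log2 fold change 0.65 ± 0.07, adjusted p = 6.61e-07). Of the low Mmp genes, Mmp19 at 0.99 ± 0.32 and Mmp23 at 0.79 ± 0.20 passed, but Mmp23 lost its call without D7 replicate 1 (adjusted p = 0.108) or D7G replicate 1 (adjusted p = 0.0508). Mmp19 lost it without D7 replicate 1, D7G replicate 1 or D7G replicate 2, with adjusted p between 0.0578 and 0.139, and also with DESeq2 (0.153) and in the second count table (log2 fold change 0.56, adjusted p = 0.204).

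Promoter sequence is shown for 4 of the 10 genes at least 2-fold higher with Gdf11, 1 from each family other than Timp. Their upstream stretches can be searched for the letters that Smad proteins and AP-1 bind. The sequences are from RefSeq on GRCm38.p6, which has mm10 coordinates, and hold the 250 bases before an annotated start, 5′ to 3′ on the strand of the gene. RefSeq promoters were matched for 53 of the 84 genes, but not for Mmp9 or Mmp2. The start used for Adamts18 lies 101 bases upstream of the 5′ end of the gene as counted. Capitals mark the Smad box CAGAC (read on both strands, so also GTCTG) and the AP-1 site TGANTCA, and the matches found do not overlap. Adamtsl2 lies at chr2:27079129-27079378 on the plus strand, Adamts18 at chr8:113848840-113849089 on the minus strand, Mmp14 at chr14:54431348-54431597 and Adam19 at chr11:46055734-46055983, both on the plus strand.
Adamtsl2: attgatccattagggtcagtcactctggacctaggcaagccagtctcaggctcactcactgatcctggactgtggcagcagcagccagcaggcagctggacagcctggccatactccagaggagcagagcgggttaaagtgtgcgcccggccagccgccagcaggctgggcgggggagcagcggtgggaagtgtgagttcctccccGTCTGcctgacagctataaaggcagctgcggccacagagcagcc
Adamts18: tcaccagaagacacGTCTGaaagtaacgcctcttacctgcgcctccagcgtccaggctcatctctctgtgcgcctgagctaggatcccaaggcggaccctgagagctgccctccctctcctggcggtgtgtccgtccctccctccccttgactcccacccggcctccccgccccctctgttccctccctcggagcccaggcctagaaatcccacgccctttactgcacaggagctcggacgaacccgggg
Mmp14: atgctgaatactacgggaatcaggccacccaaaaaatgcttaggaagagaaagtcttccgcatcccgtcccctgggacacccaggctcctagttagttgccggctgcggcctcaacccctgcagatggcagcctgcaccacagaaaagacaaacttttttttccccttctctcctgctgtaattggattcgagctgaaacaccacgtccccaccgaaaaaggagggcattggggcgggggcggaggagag
Adam19: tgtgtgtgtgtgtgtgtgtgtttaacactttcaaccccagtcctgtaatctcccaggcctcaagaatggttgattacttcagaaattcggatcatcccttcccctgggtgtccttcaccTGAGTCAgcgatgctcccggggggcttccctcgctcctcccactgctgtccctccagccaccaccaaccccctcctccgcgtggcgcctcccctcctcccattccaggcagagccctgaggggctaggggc
Adamtsl2 and Adamts18 each held 1 Smad box and Adam19 held 1 AP-1 site, while the Mmp14 window held neither of these letters. A Smad box was present in 42.2% of 32841 promoter windows of this length and an AP-1 site in 6.8%, so a match describes the letters and not a bound site. The GC box GGGCGG, searched on both strands, occurred once in the Adamtsl2 window, once in that of Adamts18 and 2 times in that of Mmp14, and was present in 32.7% of all windows. The TATA box TATAAA, searched in the same way, occurred 1 time in the Adamtsl2 window and in none of the others shown. It was present in 12.4% of all windows. RefSeq lists 3 promoters for Adam19, of which 1 is shown.

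Adamtsl2, which binds fibrillin and the latent TGF-beta binding protein Ltbp1 and has no protease domain, was among the members with the largest change. It had 8.75 and 9.61 CPM in D7G, against 0.449 and 0.452 CPM in D7, a log2 fold change of 4.34 ± 0.20 (adjusted p = 9.63e-13). In D2 it had 0.0327 and 0.0329 CPM, and in D3 and D6 0.705 to 1.02 CPM, so both D7G libraries were higher than the other 8. Adamtsl5, a relative, had 1.88 and 2.21 CPM in D7G, against 1.14 and 1.23 CPM in D7 (0.78 ± 0.20, adjusted p = 0.00339). Adamtsl1 moved the other way, with 2.88 and 2.77 CPM in D7G, against 4.25 and 4.73 CPM in D7 (-0.67 ± 0.16, adjusted p = 0.00241). Adamtsl3 at 0.60 ± 0.39 and Adamtsl4 at -0.06 ± 0.26 did not pass. None of these calls and failures depended on a setting.

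Of the Adamts enzymes, 12 of 18 were higher, 3 were lower and 3 did not pass. Adamts16, Adamts17 and Adamts18, whose substrates are little known, were all at least 2-fold higher. Adamts18 had 3.76 and 3.14 CPM in D7G, against 0.658 and 0.512 CPM in D7 (log2 fold change 2.55 ± 0.26, adjusted p = 1.50e-07), and Adamts17, a gene mutated in a Weill-Marchesani-like disease in humans, had 6.33 and 7.37 CPM in D7G, against 2.24 and 1.54 CPM in D7 (1.86 ± 0.17). Adamts16 had 1.41 and 1.21 CPM in D7G, against 0 and 0.120 CPM in D7, which rest on 4 counts. It had 45 and 39 counts in D7G and at most 7 in any other library, so it passed the filter through D7G alone. Its call, and its place in the counts of members higher or highest with Gdf11, therefore depend on that filter and add no support. Its fitted log2 fold change of 4.36 ± 0.52 (adjusted p = 1.10e-06) was 3.38 without D7 replicate 1 and 8.35 without D7 replicate 2, so its size is uncertain. Their relative Adamts19 was lower, with 6.55 and 6.47 CPM in D7G, against 11.5 and 10.8 CPM in D7 (-0.78 ± 0.10, adjusted p = 3.34e-06).

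Adamts6 and Adamts10, which act on fibrillin microfibrils, were both higher with Gdf11. Adamts6 had 45.1 and 51.6 CPM in D7G, against 13.6 and 13.6 CPM in D7 (log2 fold change 1.83 ± 0.07, adjusted p = 1.65e-13), and Adamts10 had 47.8 and 56.8 CPM in D7G, against 31.4 and 31.5 CPM in D7 (0.73 ± 0.07). In the group that cuts versican and related proteoglycans the directions were mixed. Adamts4 (0.97 ± 0.15), Adamts20 (0.86 ± 0.09), Adamts9 (0.62 ± 0.06) and Adamts5 (0.57 ± 0.18) were higher. Adamts8, usually placed in the same group, did not pass (0.15 ± 0.22, adjusted p = 0.643). Adamts9 had 45.3 and 40.2 CPM in D7G, against 28.3 and 27.4 CPM in D7, without overlap. Adamts1 had 48.4 and 48.8 CPM in D7G, against 61.8 and 63.4 CPM in D7 (-0.36 ± 0.05, adjusted p = 5.96e-06). Adamts15 had 4.77 and 3.58 CPM in D7G, against 9.01 and 8.91 CPM in D7 (-1.10 ± 0.13, adjusted p = 1.56e-06), the largest fall among members with at least 1 CPM in either group. Adamts5 lost its call whenever a D7 or D7G library was left out (adjusted p between 0.0542 and 0.0817) and with DESeq2 (adjusted p = 0.113).

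Procollagen N-proteinases trim fibrillar collagen precursors, and of their 3 genes Adamts2 alone passed, with 1.82 and 1.55 CPM in D7G, against 0.987 and 0.723 CPM in D7 (0.98 ± 0.23, adjusted p = 0.00218). Adamts3 had 2.38 and 2.55 CPM in D7G, against 3.32 and 3.40 CPM in D7 (-0.45 ± 0.18, adjusted p = 0.0582). It passed as lower under 6 alternatives, 4 of which left out a D3 or D6 library (adjusted p between 0.0327 and 0.0453 over the 6). Adamts14 had 2.73 and 2.92 CPM in D7G, against 3.77 and 3.46 CPM in D7, and did not pass (-0.36 ± 0.15, adjusted p = 0.0705). Adamts7 and Adamts12, which cut the cartilage matrix protein Comp, were higher, by 0.58 ± 0.07 and 0.99 ± 0.21 on the log2 scale.

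**Figure D2:**
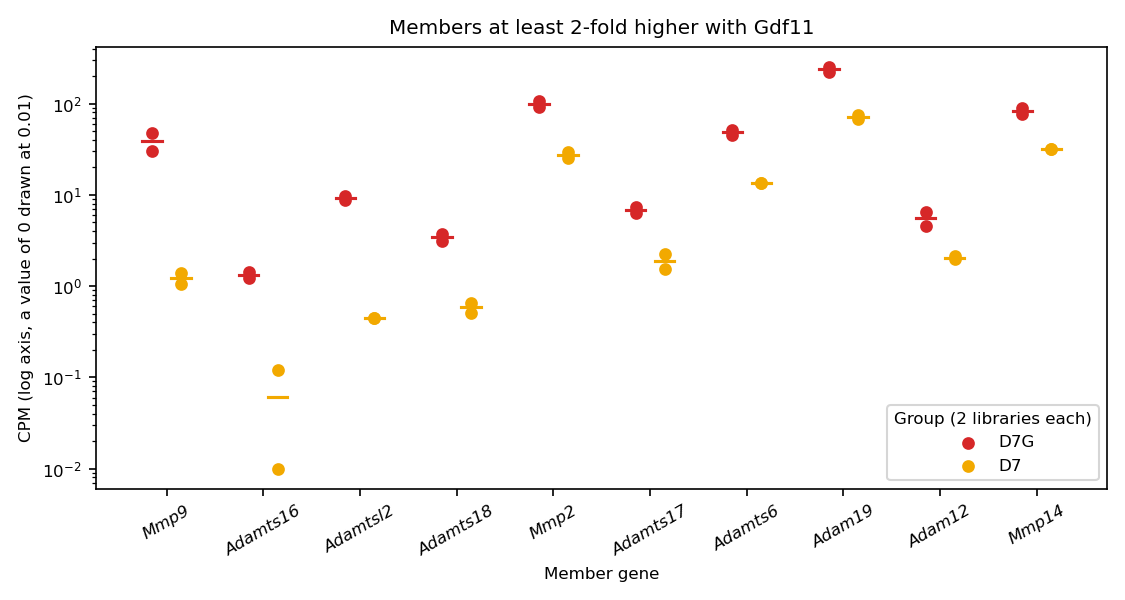
Level in CPM (log axis, a value of 0 drawn at 0.01) of the members at least 2-fold higher with Gdf11, with a point for each of the 2 libraries of D7G (red) and of D7 (yellow). For every gene drawn both D7G points lie above both D7 points, and the D7G levels run from 223 and 251 CPM for Adam19 to 1.41 and 1.21 CPM for Adamts16.

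Within the Adam family the meltrins Adam12 and Adam19, which take part in muscle and heart development, were at least 2-fold higher with Gdf11. Adam9, also called a meltrin, was not higher and is given below. Adam19 had 223 and 251 CPM in D7G, against 67.2 and 74.1 CPM in D7 (log2 fold change 1.75 ± 0.07, adjusted p = 7.72e-14). Adam12 had 4.51 and 6.50 CPM in D7G, against 1.97 and 2.14 CPM in D7 (1.42 ± 0.19, adjusted p = 6.15e-06). Both genes were above the level of every other library in both D7G libraries. The principal sheddases changed little. Adam17, which releases TNF and ligands of the EGF receptor, had 98.1 and 101 CPM in D7G, against 113 and 111 CPM in D7 (-0.16 ± 0.04, adjusted p = 0.00206). Adam10 had 206 and 208 CPM in D7G, against 197 and 186 CPM in D7 (0.11 ± 0.04, adjusted p = 0.0237). That call was lost without D7 replicate 2 or either D7G or D3 library, with DESeq2, with no filter and with only the libraries compared, with adjusted p between 0.0753 and 0.431. Adam9 had 84.5 and 84.8 CPM in D7G, against 92.2 and 89.6 CPM in D7 (-0.10 ± 0.04, adjusted p = 0.0501), and passed as lower in 11 of 19 alternatives. Adam8 at 0.09 ± 0.14 and Adam15 at -0.01 ± 0.06 did not pass.

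The catalytically inactive Adam11, Adam22 and Adam23, which are mainly neural and of which Adam22 and Adam23 bind Lgi proteins at synapses, did not move together. Adam11 had 10.6 and 11.3 CPM in D7G, against 13.4 and 15.5 CPM in D7 (-0.40 ± 0.10, adjusted p = 0.00213). Adam22 had 26.1 and 27.0 CPM in D7G, against 23.1 and 20.5 CPM in D7 (0.28 ± 0.07, adjusted p = 0.00399, and 0.128 without D7 replicate 2). Adam23 had 28.4 and 28.8 CPM in D7G, against 31.8 and 31.4 CPM in D7 (-0.14 ± 0.06, adjusted p = 0.0429), and leaving out any D2, D6, D7G or D7 library took its adjusted p to between 0.0515 and 0.0948, and it was also lost with DESeq2 (0.122) and in a fit of only the libraries compared (0.0556). The fertilin genes Adam1a (0.70 ± 0.23) and Adam2 (-1.79 ± 0.68), known from sperm, also passed. Adam1a was lost without D7 replicate 1 (adjusted p = 0.0588), D7 replicate 2 (0.135) or D7G replicate 2 (0.406), and with DESeq2 (0.128). Adam2, with at most 0.269 CPM in these groups, was lost without any D2, D3, D7G or D7 library and with no filter, with adjusted p between 0.0558 and 0.222. The Adam count upward, 5, was 2 without D7 replicate 2 and 3 without D7G replicate 2, and the count downward, 4, was 2 without either D2 library, D7 replicate 1 or either D7G library.

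**Figure D3:**
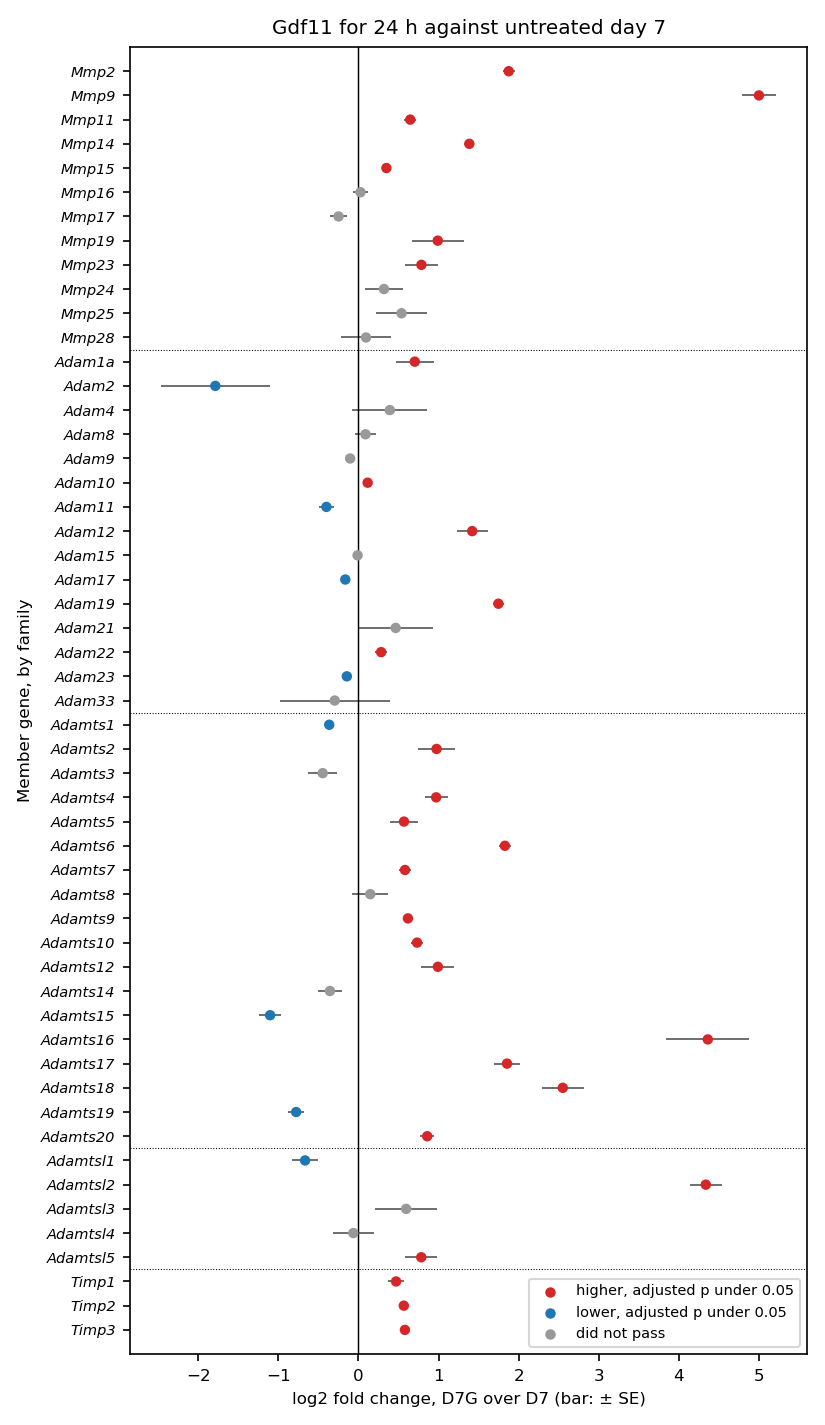
log2 fold change in D7G over D7 (across, bars ± SE) for the 53 tested genes (down the page, by family), with red for higher and blue for lower at an adjusted p under 0.05 and grey for genes that did not pass. Mmp9 at 5.00, Adamts16 at 4.36 and Adamtsl2 at 4.34 lie farthest to the right, and Adam2 at -1.79 and Adamts15 at -1.10 farthest to the left.

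Timp1, Timp2 and Timp3 were higher with Gdf11, each in both libraries. Timp3, the inhibitor that is held in the matrix, had 116 and 95.6 CPM in D7G, against 69.9 and 71.5 CPM in D7 (log2 fold change 0.58 ± 0.06, adjusted p = 4.73e-07). Timp2, which links proMmp2 to Mmp14, had 31.7 and 32.9 CPM in D7G, against 20.9 and 22.8 CPM in D7 (0.57 ± 0.07, adjusted p = 8.87e-07). Timp1, a soluble inhibitor that also binds proMmp9, had 12.2 and 11.8 CPM in D7G, against 8.71 and 8.58 CPM in D7 (0.47 ± 0.10, adjusted p = 0.00075). No pair of groups overlapped, which with 2 libraries per group describes the values only. All 3 calls held in every alternative. Timp4 had 0 and 7 counts in D7G, against 0 and 2 counts in D7, and was below the filter. Per kilobase, Timp1 at 13.7 and 13.3 CPM per kb and Timp3 at 14.2 and 11.7 CPM per kb overlapped in D7G, while Timp2 was lower at 8.14 and 8.44 CPM per kb. Timp1 lies within an intron of Syn1.

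Markers of other cell types moved in the same comparison. Of 12 embryo fibroblast markers 11 were tested, 9 were higher in D7G than in D7 and none was lower. Their summed level was 1019 and 1188 CPM in D7G, against 358 and 336 CPM in D7. Col1a1 averaged 241 CPM in D7G, against 27.3 CPM in D7, and Lum 15.2 CPM in D7G, against 1.12 CPM in D7. Of the 11 tested, 8 were at least 2-fold higher, and the median log2 fold change was 1.33. Dcn and Thy1, low members of the same list, averaged 0.671 and 1.11 CPM in D7G, against 0.524 and 0.510 CPM in D7. S100a4 had 0 and 1 counts in D7G. Endothelial and blood markers, of which 10 of 12 were tested and 2 were higher, summed to 81.3 and 83.5 CPM in D7G, against 36.8 and 37.7 CPM in D7, while Ptprc, the pan-leukocyte gene, had 0 and 2 counts in D7G. Neuron markers summed to 320.9 and 320.4 CPM in D7G, against 183 and 184 CPM in D7, with 6 of 10 higher. Spinal cord markers summed to 167 and 174 CPM in D7G, against 275 and 289 CPM in D7, with 7 of 9 tested lower and 1 higher. Epiblast markers were higher in 9 of 10 and summed to 682 and 607 CPM in D7G, against 517 and 509 CPM in D7, and 6 of 9 tested endoderm markers were higher and 1 lower, with sums of 175 and 143 CPM in D7G, against 140 and 132 CPM in D7. Caudal progenitor markers (4 higher, 4 lower of 10) and presomitic and somitic markers (3 higher, 3 lower of 10) were mixed. The part of these markers in the changes of the proteases was not tested.

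Lists of related genes were read from the same fit. Of 18 other protease inhibitors and regulators, 10 were higher with Gdf11 and none was lower, and the 10 held in every alternative. Plaur, the urokinase receptor, had 14.3 and 14.0 CPM in D7G, against 6.85 and 6.05 CPM in D7 (1.13 ± 0.11), and the testican gene Spock1 rose by 0.87 ± 0.12 on the log2 scale. A list of other matrix enzymes held proteases and also the heparanase gene Hpse and the sulphatase genes Sulf1 and Sulf2. Of its 19 tested genes, 8 were higher and 2 lower (1 lower with DESeq2). Among the higher were the serine proteases Htra3 (3.07 ± 0.33) and Htra1 (1.48 ± 0.08) and the procollagen C-proteinase Bmp1 (0.85 ± 0.06). Bmp1 had 81.3 and 91.5 CPM in D7G, against 47.5 and 48.5 CPM in D7. Of 14 substrates of Adamts enzymes and their partners 5 were higher, and 3 of these, Ltbp1 (0.79 ± 0.05), Fbn2 (0.50 ± 0.06) and Vcan (0.39 ± 0.05), held in every alternative. The count of 5 was 3 without D7 replicate 1, without D7G replicate 2 and with no filter on low counts.

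In the 10 genes of proteins that escort or regulate Adam10 and Adam17, 4 were higher with Gdf11 and 2 lower, and without D7G replicate 2 the counts were 2 and 1. The tetraspanin Tspan17, an Adam10 partner, had 2.85 and 2.95 CPM in D7G, against 1.77 and 1.63 CPM in D7 (0.77 ± 0.21, adjusted p = 0.00617), and without D7 replicate 2 its adjusted p was 0.0582. Tspan15, another partner, had 6.93 and 6.62 CPM in D7G, against 8.32 and 10.1 CPM in D7 (-0.44 ± 0.10), and Frmd8, which stabilises the iRhom escorts of Adam17, rose by 0.40 ± 0.05. Over all tested genes the share called in either direction was 40.7%, beside which these counts are to be read.

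D3 against D2 covers the first day after CHIR99021 was added, during which cells labelled epiblast stem cell became cells labelled neuromesodermal progenitor. Timp2 and Timp3 were higher on day 3, and Mmp25, Adamts15 and Mmp11 were among the lower genes. The Adamts enzymes were split, with 7 of 18 tested higher and 6 lower. Of the 53 genes, 20 were higher (29.6% of all tested genes) and 17 were lower (28.9%), with 58.5% of all tested genes called in either direction. At least 2-fold, 8 were higher (8.67% of all tested genes) and 5 were lower (5.51%). The median log2 fold change was -0.05 over the members and 0.00 over all tested genes. Of the calls, 17 of 20 upward and 9 of 17 downward held in all alternatives, and the count downward was 11 without D2 replicate 1.

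Adamts enzymes and Adamts-like proteins gave the largest rises. Adamts18 had 1.62 and 1.51 CPM in D3, against 0.0655 and 0 CPM in D2, that is 102 counts against 2, a ratio of 47.7 with a 95% counting interval of 12.9 to 399.5. Its fitted log2 fold change of 5.42 ± 0.57 was 8.65 without D2 replicate 1 and 4.50 without D2 replicate 2. Adamtsl2 had 0.705 and 1.02 CPM in D3, against 0.0327 and 0.0329 CPM in D2, 56 counts against 2 and a ratio of 26.2 (6.92 to 222). Both genes were near the limit of detection on day 2. Adamts20, a relative of Adamts9 that is mutated in the belted mouse, had 9.38 and 10.1 CPM in D3, against 2.78 and 1.94 CPM in D2 (2.04 ± 0.14, adjusted p = 2.20e-10). Adamts7 had 15.7 and 14.3 CPM in D3, against 5.37 and 5.40 CPM in D2 (1.48 ± 0.10). Adamts2 (1.33 ± 0.15), Adamts17 (1.12 ± 0.23), Adamts6 (0.87 ± 0.09) and Adamts1 (0.45 ± 0.07) were also higher.

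The falls were led by a membrane-type enzyme and a proteoglycanase. Mmp25 (MT6-MMP), which is held by a glycolipid anchor, had 5.42 and 5.37 CPM in D3, against 37.1 and 36.7 CPM in D2 (log2 fold change -2.77 ± 0.09, adjusted p = 1.97e-15). Adamts15 had 3.80 and 5.12 CPM in D3, against 24.7 and 24.1 CPM in D2 (-2.45 ± 0.12, adjusted p = 5.65e-13). Neither gene's groups overlapped. Adamts5 (-1.37 ± 0.19), Adamtsl4 (-1.22 ± 0.19), Mmp11 (-0.78 ± 0.07), Mmp17 (-0.47 ± 0.09) and Adamts10 (-0.44 ± 0.09) were lower as well. Adam2 at -2.06 ± 0.49 passed, but not with DESeq2 (adjusted p = 0.0531). It had 14 and 18 counts in D2 and at most 9 in any other library, so it passed the filter through D2 alone, and its call depends on that filter. Smaller falls that a single library could end were those of Mmp28 (-0.61 ± 0.20, adjusted p = 0.0959 without D2 replicate 1, 0.122 without D3 replicate 1 and 0.211 with DESeq2) and Adamtsl1 (-0.59 ± 0.17, 0.0558 without D2 replicate 1 and 0.0956 without D3 replicate 2). Adamts9 at -0.28 ± 0.09 lost its call without D2 replicate 1 or either D3 library, with library totals only and in the second count table (0.0566 to 0.111). Mmp2 at -0.19 ± 0.07 lost it without either D2 library or D3 replicate 1, with DESeq2, with library totals only and with no filter (0.0837 to 0.370). Adamts14 at -0.33 ± 0.12 lost it without D2 replicate 1 or either D3 library, with DESeq2 and with library totals only (0.0848 to 0.282). Adamts19 at -0.31 ± 0.13 lost it in 15 of 19 alternatives, 8 of which left out a D2, D3, D7G or D7 library (0.0519 to 0.211). Mmp9 at -0.08 ± 0.32, Mmp14 at 0.03 ± 0.06, Mmp24 at -0.05 ± 0.21, Adamts3 at -0.09 ± 0.19 and Adamtsl3 at -0.01 ± 0.36 did not pass.

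Among the Adam genes, Adam9, Adam10, Adam12 and Adam15 were higher on day 3 and Adam19 and Adam23 were lower in every alternative. Adam9 had 91.9 and 94.1 CPM in D3, against 59.4 and 57.2 CPM in D2 (0.67 ± 0.04, adjusted p = 4.03e-11), Adam15 rose by 0.65 ± 0.06 and Adam10 by 0.42 ± 0.04 on the log2 scale. Adam17 rose by 0.13 ± 0.04, a call lost without D2 replicate 2 (adjusted p = 0.0564). Adam12 had 1.5 and 1.45 CPM in D3, against 0.491 and 0.198 CPM in D2 (2.08 ± 0.36, and 2.88 without D2 replicate 1). Adam23 had 35.0 and 33.4 CPM in D3, against 49.9 and 51.8 CPM in D2 (-0.57 ± 0.05), and Adam19 had 57.5 and 60.3 CPM in D3, against 83.8 and 85.2 CPM in D2 (-0.52 ± 0.07). Adam22 at -0.26 ± 0.08 lost its call without D2 replicate 2 (adjusted p = 0.0813) or D3 replicate 2 (0.150) and with library totals only (0.0603), and Adam8 at 0.19 ± 0.17 did not pass. Of the Mmp genes, Mmp15 (0.73 ± 0.06) and Mmp16 (0.84 ± 0.18) were higher in every alternative. Mmp19 (0.81 ± 0.27) lost its call without D2 replicate 2 (0.106) or D3 replicate 1 (0.0543) and with DESeq2 (0.176).

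Timp3 had 46.0 and 49.1 CPM in D3, against 20.1 and 21.4 CPM in D2 (1.2 ± 0.08, adjusted p = 8.10e-11), and Timp2 had 46.8 and 45.9 CPM in D3, against 24.2 and 26.6 CPM in D2 (0.87 ± 0.06). Timp1 had 18.0 and 19.1 CPM in D3, against 16.8 and 14.3 CPM in D2 (0.26 ± 0.09, adjusted p = 0.0165), and without D2 replicate 2 or D3 replicate 2 its adjusted p was 0.263 and 0.103, and with DESeq2 it was 0.0725. The groups of each gene were apart. Timp4 had 2 and 2 counts in D3, against 11 and 9 counts in D2, and was below the filter and not tested. Fibroblast markers summed to 313 and 306 CPM in D3, against 155 and 192 CPM in D2, with 6 of 11 tested higher and 2 lower. Caudal progenitor markers were higher in 10 of 10, and 6 were higher of 10 presomitic and somitic markers (1 lower) and of 9 tested endoderm markers (0 lower). Epiblast and neuron markers were lower in 6 of 10 and higher in 3 each, spinal cord markers lower in 5 of 9 tested and higher in 3, and endothelial and blood markers higher in 4 of 10 tested and lower in 3. The part of these markers in the change of the proteases and Timp genes was not tested.

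In the related lists, 12 of 19 tested other matrix enzymes were higher on day 3 and 3 were lower. Pcsk5, the proprotein convertase known to activate the Gdf11 precursor, had 10.6 and 11.1 CPM in D3, against 1.47 and 0.856 CPM in D2 (3.22 ± 0.16), and the carboxypeptidase Cpz had 21.1 and 21.4 CPM in D3, against 4.91 and 3.66 CPM in D2 (2.31 ± 0.12). Of the procollagen C-proteinase family Tll1 fell by 1.79 on the log2 scale. Of 18 inhibitors and regulators 6 were higher and 5 lower, with A2m at -2.94 ± 0.35, the collagen chaperone Serpinh1 at 0.75 ± 0.03 and Serpinf1 at -0.73 ± 0.11. Of 14 substrates and partners 7 were higher and 4 lower. Vcan, the versican gene, had 178 and 170 CPM in D3, against 36.0 and 35.1 CPM in D2 (2.29 ± 0.06), whereas the aggrecan gene Acan had 2.05 and 2.00 CPM in D3, against 8.97 and 10.2 CPM in D2 (-2.24 ± 0.15). Hapln1, a link protein, had 1.93 and 2.04 CPM in D3, against 0.164 and 0 CPM in D2 (4.53 ± 0.46, or 8.99 without D2 replicate 1 and 3.57 without D2 replicate 2). All 10 genes around Adam10 and Adam17 were called, 6 higher and 4 lower (2 lower with DESeq2). Of these, 4 higher and 2 lower held in every alternative. Tspan17 was at -1.31 ± 0.16, Tspan33 at -0.41 ± 0.10 and the iRhom gene Rhbdf2 at 0.39 ± 0.06. The counts of these lists are to be read beside the 58.5% of all tested genes called in this comparison.

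D6 against D3 spans the time after cells were split on day 3. Most Mmp genes and the soluble inhibitors Timp1 and Timp2 were lower on day 6, while the sheddases Adam10 and Adam17, the proteoglycanases Adamts1 and Adamts9 and the membrane-type Mmp16 were higher. Of the 53 genes, 15 were higher (32.4% of all tested genes) and 20 were lower (33.3%), with 65.7% of all tested genes called. At least 2-fold, 7 were higher (6.95%) and 11 were lower (14.1%). The median log2 fold change was -0.12 over the members and -0.01 over all tested genes. Of the calls, 14 of 15 upward and 15 of 20 downward held in all alternatives.

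Mmp16 showed the largest rise. It had 20.4 and 18.3 CPM in D6, against 3.37 and 3.12 CPM in D3 (log2 fold change 2.58 ± 0.12, adjusted p = 1.71e-13). Adamts1 had 67.7 and 67.9 CPM in D6, against 16.9 and 18.4 CPM in D3 (1.94 ± 0.06, adjusted p = 1.62e-16), and Adamts9 had 29.7 and 29.8 CPM in D6, against 9.56 and 9.53 CPM in D3 (1.64 ± 0.08, adjusted p = 2.63e-13). The groups of these 3 genes did not overlap. Adam10 had 189 and 180 CPM in D6, against 99.0 and 96.0 CPM in D3 (0.92 ± 0.04, adjusted p = 1.06e-13), and Adam17 had 116 and 113 CPM in D6, against 88.3 and 90.2 CPM in D3 (0.36 ± 0.04). Adam1a (1.32 ± 0.24), Adamtsl3 (1.29 ± 0.30), Adamts17 (1.13 ± 0.17), Adamts19 (0.94 ± 0.12), Adam8 (0.74 ± 0.15), Adamts10 (0.66 ± 0.08) and Mmp15 (0.28 ± 0.06) rose as well. Adam21, at most 0.483 CPM in these groups, passed with 1.68 ± 0.48, but not without D3 replicate 2 (adjusted p = 0.0706), with DESeq2 (0.0841) or in the second count table (0.96, adjusted p = 0.0727). Adam1a shares 22.1% of its exonic bases with the same-strand gene Gm42878, so its level is uncertain. Its sequence was not compared with that of its relative Adam1b.

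Adamts2, Mmp25 and Adamtsl5 gave the largest falls. Adamts2 had 0.579 and 0.646 CPM in D6, against 6.80 and 6.69 CPM in D3 (log2 fold change -3.45 ± 0.20, adjusted p = 5.31e-12). Mmp25 had 0.547 and 0.678 CPM in D6, against 5.42 and 5.37 CPM in D3 (-3.13 ± 0.19), and Adamtsl5 had 0.676 and 0.872 CPM in D6, against 5.39 and 5.46 CPM in D3 (-2.80 ± 0.18). In each case the day 6 libraries were below 1 CPM. Of 12 Mmp genes 9 were lower, 7 of them in every alternative. They included Mmp28 (-2.14 ± 0.30), Mmp23 (-1.98 ± 0.20), Mmp19 (-1.45 ± 0.29), Mmp24 (-1.08 ± 0.24), Mmp14 (-0.79 ± 0.07) and Mmp11 (-0.61 ± 0.08). Mmp14 had 29.1 and 27.6 CPM in D6, against 47.3 and 50.6 CPM in D3. Mmp2 (-0.24 ± 0.08) was no longer called when D3 replicate 2 (adjusted p = 0.157) or D6 replicate 2 (0.0881) was left out or with no filter (0.0583), and Mmp17 (-0.33 ± 0.10) with DESeq2 (0.0505). Mmp9 at -0.78 ± 0.37 did not pass (adjusted p = 0.0678), though 6 of 19 alternatives called it lower, namely those without D3 replicate 1 (0.0343) or either D7G library (0.00508 and 0.00548), with library totals only (0.0464), with only the libraries compared (0.00892) and with the replicate block (0.00387).

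Among the remaining genes Adam33 (-2.32 ± 0.45), Adamtsl4 (-1.21 ± 0.27), Adamts14 (-0.82 ± 0.14) and Adam9 (-0.29 ± 0.04) were lower on day 6. Adam9 had 75.6 and 76.3 CPM in D6, against 91.9 and 94.1 CPM in D3. Adamts18 at -0.74 ± 0.28 lost its call without either D3 library or D6 replicate 1 and with DESeq2 (adjusted p between 0.0561 and 0.284), Adamts6 at -0.27 ± 0.09 without D3 replicate 1 or D6 replicate 2 (0.0725 and 0.0800), and Adam15 at -0.13 ± 0.06 in 12 of 19 alternatives, among them all that left out a D2, D3 or D7 library or D6 replicate 1 (0.0542 to 0.494 over the 12). Adam12 (-0.39 ± 0.28), Adam19 (0.15 ± 0.07), Adam22 (-0.14 ± 0.08), Adam23 (0.04 ± 0.05), Adamts3 (-0.09 ± 0.19), Adamts5 (-0.52 ± 0.24) and Adamtsl1 (-0.00 ± 0.18) did not pass. Adam19 passed as higher without D6 replicate 1 (0.00210) or either D7G library (0.0411) and with the replicate block (0.0178), Adamts5 as lower without D6 replicate 1 (0.0439) and with library totals only (0.0380), and Adam22 as lower with library totals only (0.0242).

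**Figure D4:**
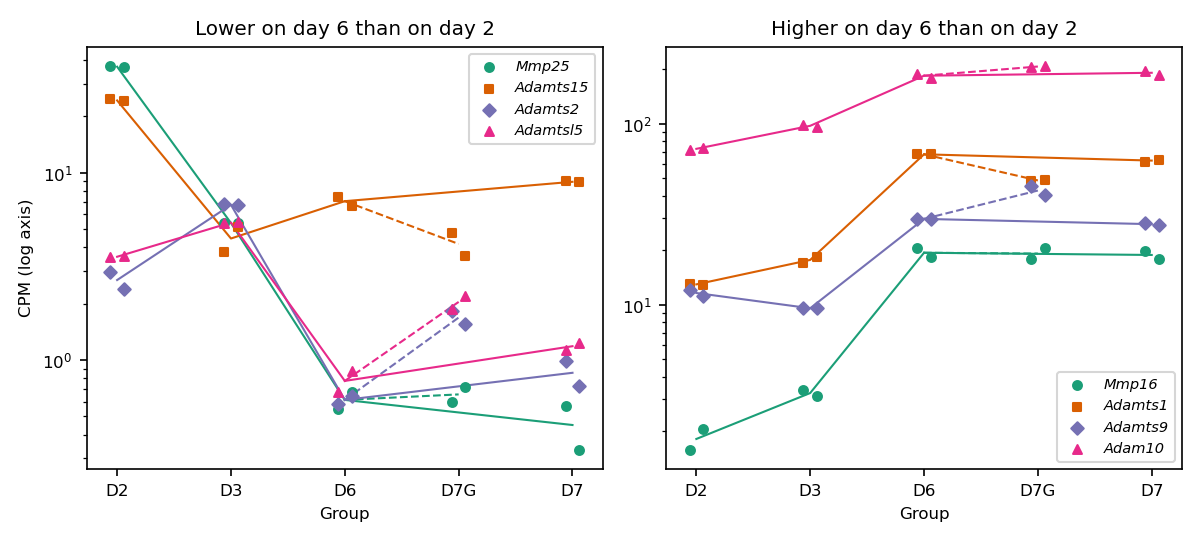
Level in CPM (log axis) by group of 4 genes lower on day 6 than on day 2 (left) and 4 higher (right), a point for each library, full lines through the means of D2, D3, D6 and D7 and a dashed line from D6 to D7G. Mmp25 is highest in D2 with 37.1 and 36.7 CPM and below 1 CPM in D6, D7G and D7, while Mmp16 is at 17.8 to 20.5 CPM in all 3 later groups.

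Timp1 had 6.47 and 7.62 CPM in D6, against 18.0 and 19.1 CPM in D3 (log2 fold change -1.40 ± 0.10, adjusted p = 1.26e-10), and Timp2 had 19.6 and 18.3 CPM in D6, against 46.8 and 45.9 CPM in D3 (-1.29 ± 0.07, adjusted p = 8.32e-13). Timp3 had 43.2 and 44.1 CPM in D6, against 46.0 and 49.1 CPM in D3, and did not pass (-0.12 ± 0.07, adjusted p = 0.141). It passed as lower without either D7G library, with only the libraries compared and with library totals only (adjusted p between 0.0220 and 0.05). Timp4 had 3 and 2 counts in D6, against 2 and 2 counts in D3. Fibroblast markers moved too, with 8 of 11 tested lower and 3 higher. Col1a1 averaged 8.17 CPM in D6, against 98.1 CPM in D3, whereas the summed level was 231 and 216 CPM in D6, against 313 and 306 CPM in D3. S100a4 had 0 and 0 counts in D6, and Thy1 averaged 0.387 CPM in D6, against 7.79 CPM in D3. Spinal cord markers were higher in 8 of 9 tested, with sums of 220 and 194 CPM in D6, against 67.1 and 64.0 CPM in D3, and caudal progenitor markers were lower in 10 of 10. Presomitic and somitic markers were higher in 7 of 10 and lower in 3, epiblast markers lower in 7 of 10 and higher in 1, neuron markers higher in 5 of 10 and lower in 5. Of the endoderm markers 4 of 9 tested were higher and 0 lower, and of the endothelial and blood markers 2 of 10 tested were higher and 5 lower. The part of these markers in the changes was not tested.

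**Figure D5:**
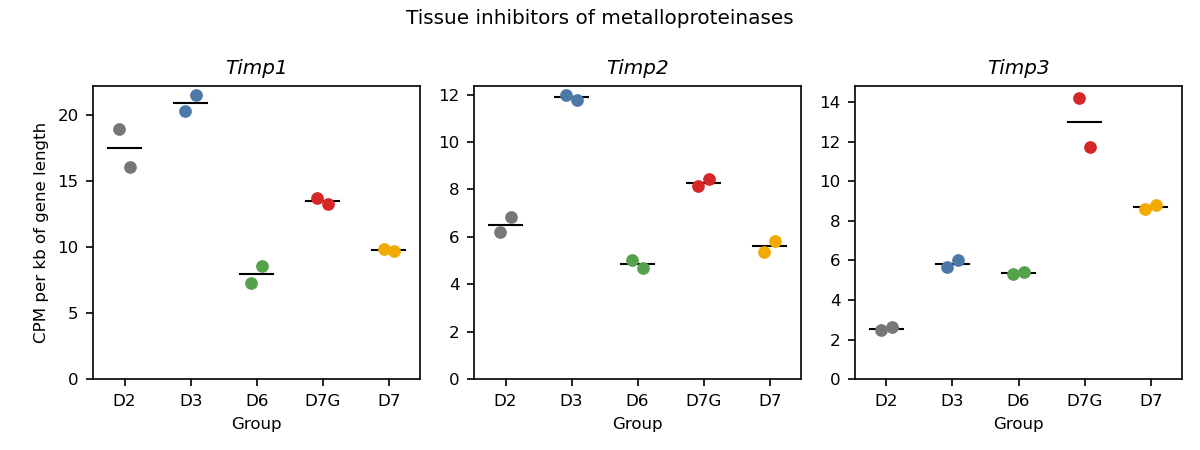
Level of Timp1, Timp2 and Timp3 in CPM per kb of gene length by group, with a point for each library. Timp1 and Timp2 are highest in D3, at 20.3 and 21.5 CPM per kb and at 12.0 and 11.8 CPM per kb, and Timp3 is highest in D7G, at 14.2 and 11.7 CPM per kb.

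Of the other matrix enzymes, 5 of 19 tested were higher on day 6 and 11 lower. The serine protease Fap had 4.47 and 3.97 CPM in D6, against 0.429 and 0.586 CPM in D3 (3.05 ± 0.22), Cpz fell by 2.71 and the heparan sulphate endosulphatase Sulf1 fell by 1.32 on the log2 scale. Among 18 inhibitors and regulators 7 were higher and 7 lower. Spint1, which inhibits matriptase and the activator of hepatocyte growth factor, had 16.9 and 18.9 CPM in D6, against 83.5 and 86.5 CPM in D3 (-2.25 ± 0.06). Papln fell by 3.28, with -2.65 without D6 replicate 1, -4.40 without D6 replicate 2 and -1.68 in the second count table. Of 14 substrates 5 were higher and 8 lower. Fbn2 had 178 and 166 CPM in D6, against 24.1 and 24.5 CPM in D3 (2.82 ± 0.07), while the brevican gene Bcan (-3.29 ± 0.30, and -3.95 without D6 replicate 1) and Comp (-2.59 ± 0.39) were lower. Of the 10 genes around Adam10 and Adam17, 3 were higher and 6 lower. Rhbdf2 was at -1.52 ± 0.07, Frmd8 at -0.81 ± 0.05 and Tspan17 at -1.75 ± 0.24, or -2.35 without D6 replicate 2. Beside these list counts, 65.7% of all tested genes were called in either direction.

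D7 against D6 compares cells 1 day apart without Gdf11, and changes were fewer. Timp3 and the proteoglycanase Adamts5 rose, and Adamtsl3, Adamts17 and Adam1a fell. Of the 53 genes, 15 were higher (20.5% of all tested genes) and 6 were lower (15.6%), with 36.0% of all tested genes called. At least 2-fold, 1 was higher (2.63%) and 2 were lower (0.707%). The median log2 fold change was 0.16 over the members and 0.04 over all tested genes. Of the calls, 10 of 15 upward and 3 of 6 downward held in all alternatives.

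Adamts17 had 2.24 and 1.54 CPM in D7, against 4.54 and 5.49 CPM in D6 (log2 fold change -1.40 ± 0.18, adjusted p = 4.76e-06), and Adamtsl3 had 0.449 and 0.271 CPM in D7, against 1.54 and 1.10 CPM in D6 (-1.86 ± 0.32, adjusted p = 0.000159). Adamts5 had 2.15 and 2.14 CPM in D7, against 1.22 and 0.904 CPM in D6 (1.01 ± 0.23, adjusted p = 0.00157). The groups of all 3 genes were apart. Adam1a fell by 0.95. Rises that held in every alternative were those of Adamtsl1 (0.76 ± 0.16), Timp3 (0.69 ± 0.07), Adam11 (0.63 ± 0.10), Adamts19 (0.60 ± 0.10), Mmp11 (0.50 ± 0.08), Adam22 (0.46 ± 0.08), Adamts7 (0.45 ± 0.08), Adamts10 (0.30 ± 0.08) and Adam9 (0.26 ± 0.04). Timp3 had 69.9 and 71.5 CPM in D7, against 43.2 and 44.1 CPM in D6.

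The calls of Timp1 (0.30 ± 0.11) and Timp2 (0.20 ± 0.07) did not hold throughout. Timp1 lost its call in 12 of 19 alternatives, among them those without either D3, D7G or D7 library or D6 replicate 1 (adjusted p between 0.0559 and 0.326), and Timp2 in 9, among them those without either D3 or D7G library, D6 replicate 2 or D7 replicate 2 (0.0600 to 0.384). The Timp count of 3 was 1 without either D3 or D7G library or D7 replicate 2, with DESeq2, with no filter and with only the libraries compared. Adam12 (0.86 ± 0.26) lost its call without D6 replicate 2 (0.0731) or D7 replicate 2 (0.0837), Adamtsl4 (0.76 ± 0.29) in 14 of 19 alternatives, among them all that left out a library other than D6 replicate 2 (0.0526 to 0.293), Mmp2 (-0.26 ± 0.08) without D6 replicate 1 (0.115) or D7 replicate 2 (0.146), and Adam23 (-0.16 ± 0.05) without either D6 library or D7 replicate 2, with DESeq2 and with library totals only (0.0536 to 0.0951). Mmp9 (0.09 ± 0.40), Mmp14 (0.16 ± 0.07), Mmp15 (-0.09 ± 0.05), Mmp16 (-0.04 ± 0.09), Mmp17 (0.01 ± 0.10), Mmp24 (0.45 ± 0.26), Adam8 (-0.15 ± 0.14), Adam10 (0.05 ± 0.04), Adam15 (-0.01 ± 0.06), Adam17 (-0.03 ± 0.04) and Adam19 (0.11 ± 0.07) did not pass. Nor did Adamts1 (-0.12 ± 0.05), Adamts3 (0.46 ± 0.18), Adamts9 (-0.10 ± 0.07) and Adamts18 (-0.67 ± 0.34). Of these, Adam19 passed without D6 replicate 2 (0.0119), Adamts3 (0.00903) and Adamts18 (0.0400) without D6 replicate 1, and Adamts1 as lower in 9 of 19 alternatives, among them those without either D3 or D7G library (0.0145 to 0.0448). With library totals only Mmp14 (0.0273) and Adamts3 (0.0427) also passed as higher. Fibroblast markers were higher in 6 of 11 and lower in none, with sums of 358 and 336 CPM in D7, against 231 and 216 CPM in D6. Neuron markers were higher in 7 of 10 and lower in 1, and caudal progenitor markers were lower in 8 of 10 and higher in 0. Presomitic and somitic markers were lower in 8 of 10 and higher in 1, and spinal cord markers higher in 6 of 9 tested and lower in 0. The others were epiblast markers (3 of 10 higher, 2 lower), endoderm markers (2 of 9 tested higher, 0 lower) and endothelial and blood markers (1 of 10 tested higher, 2 lower). The part of these markers in the changes was not tested.

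In the related lists, 9 of 19 tested other matrix enzymes were higher on day 7 and 3 lower. Of these, 6 higher and 1 lower held in every alternative. Fap had 8.59 and 7.59 CPM in D7, against 4.47 and 3.97 CPM in D6 (0.94 ± 0.13), and the heparanase gene Hpse rose by 1.01 ± 0.20. Of 18 inhibitors and regulators 9 were higher and 1 lower (0 lower without D6 replicate 1 or D7 replicate 2), led by Spock1 with 9.42 and 9.21 CPM in D7, against 3.51 and 4.36 CPM in D6 (1.24 ± 0.15). Of 14 substrates 4 were higher and 3 lower, with Ncan at 1.07 ± 0.18, Ltbp4 at 0.35 ± 0.06 and Hapln1 at -1.87 ± 0.34. Of the 10 genes around Adam10 and Adam17 4 were higher, of which Rhbdf2 (0.46 ± 0.07) alone held in every alternative. Over all tested genes 36.0% were called in either direction, beside which these list counts are to be read.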

How the data were processed

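The authors deposited 2 tables of raw read counts for the same 10 libraries, 1 per gene symbol (52459 symbols, used here) and 1 per Ensembl gene (55298 genes, used as an alternative). Every row named a gene, and 0 columns belonged to other samples. The tools named in the submitters' processing notes are featureCounts 1.6.3, HISAT2 2.1.0, STAR and limma, and the build is mm10. The role of each, the counting options, the use of strand and the gene model are not given in the sources used here. Coordinates, gene lengths and overlaps of exons were read from the exon columns of the deposited count table.

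Counts were fitted with edgeR 4.0.16 (glmQLFit and glmQLFTest, R 4.3.3) in 1 model of all 10 libraries with 1 coefficient per group, 5 residual degrees of freedom, TMM scaling and the default filterByExpr, which kept 18818 genes. Benjamini-Hochberg adjustment ran over all of them, with an adjusted p under 0.05 as the threshold for a call. SE is the log2 fold change divided by the square root of the F statistic. CPM were computed on TMM-scaled library totals. The fit was tried on simulated counts with known changes, drawn with the spread that the fit itself had estimated. Such counts cannot show how the fit behaves where the real spread differs from that estimate. Counting intervals are exact 95% intervals and, like the sums, cover counting error only, since no molecular identifiers are stated.

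The 19 alternatives were DESeq2 1.42.0, limma-voom (limma 3.58.1), DESeq2 size factors, library totals only, no filter, a minimum of 1 CPM in 2 libraries, counts per Ensembl gene, a fit restricted to the libraries compared, a replicate block, and 10 fits without 1 library each. Such a fit leaves 1 library in a group, whose spread is assumed equal to that of the other groups, and its filter lets more genes in. Their use on families and gene lists was added after seeing the data.

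The members, the gene lists and the cell type markers were chosen with earlier results of these data known. Genes were named by a rule: the 4 Timp genes and a list of 27 further members in each comparison, members called at least 2-fold with groups that did not overlap and at least 1 CPM in a group, and up to 3 called genes of at least 1 CPM per related list. One gene of a related list is not reported here. Other members are named where a count or a call needed them.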

Additional observations from a re-analysis of the deposited data

How the results depend on the processing

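No change of direction of a called gene occurred among the 53 members and the genes of the related lists under the 19 alternatives. The count of members lower in D3 than in D2, 17, was 11 to 18 when 1 library was left out. The other 7 counts of members stayed within 1.5 times: in these fits 18 to 21 were higher in D3 than in D2, 14 to 16 higher and 18 to 22 lower in D6 than in D3, 10 to 14 higher and 4 to 8 lower in D7 than in D6, and 25 to 29 higher and 6 to 9 lower in D7G than in D7. Over all tested genes the deviations of same-numbered libraries from their group means correlated between -0.0418 and 0.0487. Counting noise enters these values, so they cannot show whether the replicate numbers pair the libraries. The fit with the replicate block called 20 members higher and 18 lower in D3 than in D2, 16 and 21 in D6 than in D3, 14 and 6 in D7 than in D6, and 29 and 9 in D7G than in D7; it lost Adamtsl4 in D7 against D6 and gained Adamts4 in D3 against D2, Mmp9 and Adam19 in D6 against D3, and Adam9 in D7G against D7. Depth limits the 31 genes below the filter, which had at most 11 counts in a library and were not tested in the fit of all 10 libraries.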

Other observations

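Genes below the filter gave a few counts in single groups, and counting error limits what they show. Mmp10 (stromelysin-2) had 9 and 5 counts in D3, against 0 and 0 counts in D2, at least 4.37-fold higher with the floor of 3 counts over the group. Mmp3 (stromelysin-1) had 0 and 0 counts in D6, against 6 and 2 counts in D3, at least 2.54-fold lower. Mmp8, the neutrophil collagenase, had 1 and 5 counts in D7G, against 0 and 0 counts in D7, at least 2.08-fold higher. Adam30 had 9 and 8 counts in D6, against 1 and 1 counts in D3, a ratio of 8.91 with a 95% counting interval of 2.12 to 79.5. Timp4 had 7 counts in D7G, against 2 counts in D7, a ratio of 3.64 (0.693 to 35.9).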
